A study of Mus musculus with 50 samples.

Results

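The 32 genes described here encode the enzymes of glycolysis, the transporters that bring glucose into the cell and carry lactate out of it, and the enzymes that regulate the pathway. They were listed by function, with no threshold on a measured value but with earlier results of these data known. All 32 were found among the 21954 genes of the deposited tables. They comprise 3 hexokinases, 2 glucose transporters, 7 enzymes of the upper and 8 of the lower part of the pathway, 4 genes of lactate production and export, 4 pyruvate dehydrogenase kinases and 4 phosphofructokinase-2 enzymes.

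RNA-seq was performed on bone marrow-derived macrophages in culture and on tissue around the wound bed of amputated mouse digits. Macrophages came from the marrow of female C57BL/6 mice aged 6 to 8 weeks and were unstimulated (M0, labelled baseline with no time), treated for 24 hours with 20 ng/ml IFN-γ and 100 ng/ml LPS (M1), or treated for 24 hours with 20 ng/ml IL-4 (M2), with 3 libraries each. Digits came from male C57Bl/6 mice aged 9 to 10 weeks, whose distal terminal phalanx of hindlimb digit 3 was amputated. The non-regenerative digits had lost 60% to 80% of the phalanx and were collected at 0, 3, 6, 12 and 24 hours and at 3, 7, 14 and 21 days, with 3 libraries per time and 5 at 7 days. The intermediate digits had lost 41% to 55% and were collected at 0 and 24 hours and at 14 and 21 days, with 3 libraries per time. Groups follow the labels, and some digits labelled non-regenerative lay below the study's stated limit for that group, within its intermediate range. No group carried a transgene or deletion, and regenerative digits were not analysed here. The labels do not say which libraries came from the same mouse or culture, so p-values measure the spread between these libraries, which may in part be technical.

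Glycolysis splits glucose into pyruvate and yields ATP without oxygen. Glucose enters through facilitative transporters and is trapped by hexokinase, phosphofructokinase commits it to the pathway, and the lower enzymes harvest ATP and NADH. Lactate dehydrogenase turns pyruvate into lactate, monocarboxylate transporters carry lactate across the membrane, and pyruvate dehydrogenase kinases hold pyruvate back from the mitochondria. Macrophages stimulated with LPS and IFN-γ are known for high glycolysis, those stimulated with IL-4 for greater reliance on oxidative metabolism, and neutrophils and epidermal keratinocytes are also glycolytic cells.

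Many glycolysis genes are known targets of hypoxia-inducible factors, which bind DNA around the core ACGTG or GCGTG, and of MYC, which binds CACGTG. The promoters of the 6 members with the largest rises in M1 and the 2 with the largest falls are therefore printed, as the 250 bases before the RefSeq start in the direction of transcription (build GRCm38.p6). Capitals mark each ACGTG on either strand (CACGT is the same motif read from the other strand, and CACGTG holds both). GCGTG was not searched for. Where a gene had more than 1 RefSeq start, as Pfkfb3 and Pkm did, the start with more matches is shown.
Pfkfb3 (chr2:11502091-11502340, minus strand): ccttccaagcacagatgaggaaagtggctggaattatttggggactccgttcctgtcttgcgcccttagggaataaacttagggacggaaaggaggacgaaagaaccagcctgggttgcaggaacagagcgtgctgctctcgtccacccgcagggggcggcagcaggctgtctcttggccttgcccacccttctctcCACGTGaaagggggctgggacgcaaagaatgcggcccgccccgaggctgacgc
Slc16a3 (chr11:120948817-120949066, plus strand): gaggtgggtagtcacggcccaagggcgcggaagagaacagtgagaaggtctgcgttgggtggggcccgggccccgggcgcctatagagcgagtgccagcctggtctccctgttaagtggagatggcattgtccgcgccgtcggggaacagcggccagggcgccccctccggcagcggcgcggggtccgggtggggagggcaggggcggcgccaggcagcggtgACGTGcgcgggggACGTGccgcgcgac
Slc2a1 (chr4:119108495-119108744, plus strand): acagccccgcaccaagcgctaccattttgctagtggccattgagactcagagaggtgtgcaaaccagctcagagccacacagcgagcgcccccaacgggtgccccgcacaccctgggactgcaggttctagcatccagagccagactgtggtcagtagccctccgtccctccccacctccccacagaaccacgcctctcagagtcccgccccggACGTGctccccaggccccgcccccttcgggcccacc
Pkm (chr9:59656977-59657226, plus strand): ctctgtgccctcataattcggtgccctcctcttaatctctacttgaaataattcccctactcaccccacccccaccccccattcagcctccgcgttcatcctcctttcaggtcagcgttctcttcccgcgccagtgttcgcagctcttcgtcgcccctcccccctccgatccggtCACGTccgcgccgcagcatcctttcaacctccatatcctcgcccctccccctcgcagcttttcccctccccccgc
Hk3 (chr13:55021386-55021635, minus strand): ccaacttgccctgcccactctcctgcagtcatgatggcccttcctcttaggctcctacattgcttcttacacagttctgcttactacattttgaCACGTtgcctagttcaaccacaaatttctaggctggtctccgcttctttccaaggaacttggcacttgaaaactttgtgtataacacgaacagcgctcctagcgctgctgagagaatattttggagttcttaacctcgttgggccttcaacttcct
Pgk1 (chrX:106186850-106187099, plus strand): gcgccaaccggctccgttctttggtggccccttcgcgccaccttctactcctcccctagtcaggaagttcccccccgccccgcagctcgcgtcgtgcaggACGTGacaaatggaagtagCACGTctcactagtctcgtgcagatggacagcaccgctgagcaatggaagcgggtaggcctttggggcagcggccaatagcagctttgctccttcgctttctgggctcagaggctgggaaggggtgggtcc
Pdk4 (chr6:5496279-5496528, minus strand): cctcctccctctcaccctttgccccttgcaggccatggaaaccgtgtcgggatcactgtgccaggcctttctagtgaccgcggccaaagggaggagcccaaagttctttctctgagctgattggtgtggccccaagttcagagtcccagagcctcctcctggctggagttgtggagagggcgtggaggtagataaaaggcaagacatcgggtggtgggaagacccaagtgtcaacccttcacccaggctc
Ldhb (chr6:142507958-142508207, minus strand): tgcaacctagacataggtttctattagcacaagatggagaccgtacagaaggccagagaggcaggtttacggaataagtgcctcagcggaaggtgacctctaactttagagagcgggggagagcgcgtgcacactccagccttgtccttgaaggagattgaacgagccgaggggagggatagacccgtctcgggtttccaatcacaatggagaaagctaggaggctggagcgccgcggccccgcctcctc
The Pfkfb3 promoter held CACGTG with its first base 53 bases before the start. The Slc16a3 promoter held ACGTG at 27 and 14 bases before the start, and the Pgk1 promoter held matches at 150 and 131 bases. Slc2a1, Pkm and Hk3 had 1 match each, at 36, 75 and 156 bases, and the windows of Pdk4 and Ldhb had no ACGTG. The windows of Pdk4, Ldhb and Pfkfb3, among others, hold GCGTG, which was not counted as a match here or in the shares below. Among the 31 members with a RefSeq promoter, 15 (48.4%) had a match in at least 1 window of this length, beside 4998 of all 27025 genes (18.5%) and 24.4% of the genes tested in M1 that had one. Counted by start, since genes differ in their number of starts, the shares were 38% of 50 for members, 16.6% for all genes and 20.9% for tested genes. By response in M1, a match was found for 9 of the 17 members called higher, 3 of the 6 called lower and 3 of the 8 others. A match describes the letters in the window and does not show that a factor bound there.

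Macrophage libraries held 15683424 to 27904773 expected counts and digit libraries 1468749 to 13011782, so that low-level members were measured less precisely in digits. The summed level of 8 macrophage markers was 11588 to 12583 normalized TPM in M0, 9333 to 9790 in M1 and 10744 to 11504 in M2. The 10 neutrophil markers summed to 461 to 479, 161 to 194 and 492 to 552, and those of muscle, keratinocytes, adipocytes and erythroid cells to at most 11.5 in any macrophage library. In digits, 2 non-regenerative libraries stood apart. Replicate 2 at 14 days had a median rank correlation of 0.585 with its own group, a normalized TPM total of 3362791 against at most 1434851 in any other digit, and Aldoa at 7981 normalized TPM against 373 and 692 in its group. Replicate 2 at 7 days had a median rank correlation of 0.739 with its group, and Pgk1 at 3.50 normalized TPM against 153 to 467 in the other 4. Levels and calls of Slc16a3 and the counts of members by edgeR at 7 and 14 days are given with and without them. Normalized TPM is the level scale used throughout, is per transcript length, and was scaled separately for macrophages and digits.

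In M1 macrophages most of the pathway rose. A gene was called when edgeR's quasi-likelihood test gave a Benjamini-Hochberg adjusted p under 0.05 over all genes tested and the mean normalized count changed more than 2-fold. Against M0, 17 of the 32 members were called higher and 6 lower, beside 20.1% of all 12939 genes tested called higher and 26% called lower. The median log2 fold change was 1.4 over the members and -0.09 over all genes tested. The 18 enzymes that lead from glucose to pyruvate made up 0.554% ± 0.0108 (SD, n = 3) of all normalized TPM in M0, 1.88% ± 0.0593 in M1 and 0.817% ± 0.0105 in M2, with no overlap between the groups.

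**Figure D1:**
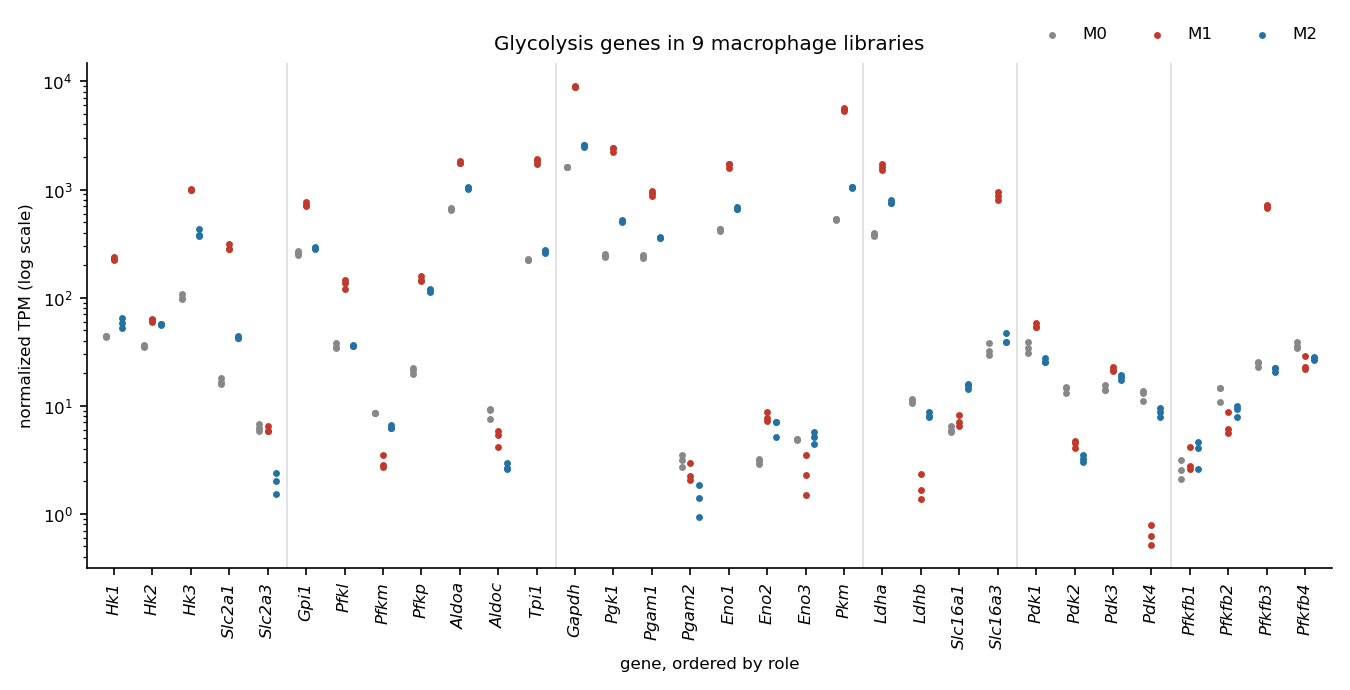
Level of each of the 32 genes in each of the 9 macrophage libraries, as normalized TPM on a log axis, with genes ordered by role and 1 point per library. Gapdh and Pkm are the highest members in M1, and Slc16a3 and Pfkfb3 lie near M2 levels in M0 and far above both in M1.

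Among genes of glucose uptake and trapping, transcripts of Slc2a1, Hk1 and Hk3 rose in M1. Slc2a1 encodes GLUT1, the basal glucose transporter, and stood at 15.7, 17.9 and 16.5 normalized TPM in M0, at 315, 283 and 282 in M1 and at 43.8, 42.7 and 42.0 in M2. It rose in M1 by a log2 fold change of 4.12 ± 0.08 (SE, edgeR adjusted p = 1.54e-13). Slc2a3, which encodes the high-affinity transporter GLUT3, was low throughout: 5.83 to 6.82 in M0 and 5.82 to 6.50 in M1, with a log2 fold change of -0.09 ± 0.10 (edgeR adjusted p = 0.408). Thus the 2 transporters parted in M1, and Slc2a1 went from 72.6% to 98.0% of their summed level.

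Hexokinase makes glucose 6-phosphate. Hk3, the isoform found mainly in myeloid cells, stood at 107, 96.3 and 98.6 normalized TPM in M0, at 1013, 982 and 985 in M1 and at 429, 375 and 380 in M2. The 3 groups did not overlap, and the log2 fold change in M1 was 3.31 ± 0.05 (edgeR adjusted p = 8.14e-14). Hk1, the housekeeping isoform, rose as well, from 43.6 to 44.0 in M0 to 221 to 239 in M1 (log2 fold change 2.39 ± 0.05). Hk2, the inducible isoform, passed the test but not the 2-fold limit, with a log2 fold change of 0.78 ± 0.04.

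In the upper pathway, Gpi1, Pfkl, Pfkp, Aldoa and Tpi1 rose in M1 and Pfkm fell. Tpi1, triosephosphate isomerase, stood at 221 to 227 normalized TPM in M0 and 1728 to 1912 in M1 (log2 fold change 3.03 ± 0.05). Pfkp, the platelet-type phosphofructokinase, stood at 21.3, 19.7 and 22.2 in M0 and 157, 145 and 142 in M1 (log2 fold change 2.79 ± 0.05). Pfkl, the liver type and the main isoform of M0, had a log2 fold change of 1.94 ± 0.07, while Pfkm, the muscle type, fell by 1.52 ± 0.11 on that scale (8.49 to 8.62 in M0, 2.70 to 3.47 in M1). Aldoc, the brain-type aldolase, was low and was not called (log2 fold change -0.79 ± 0.16), whereas the ubiquitous Aldoa rose from 643 to 671 to 1753 to 1821.

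The lower pathway held the most abundant members. Gapdh, which makes NADH, stood at 1627, 1630 and 1601 normalized TPM in M0 and 9123, 8864 and 8905 in M1 (log2 fold change 2.48 ± 0.05). Pkm, the pyruvate kinase of most adult tissues, stood at 525, 535 and 537 in M0 and 5640, 5294 and 5514 in M1 (log2 fold change 3.35 ± 0.05, edgeR adjusted p = 6.12e-14). Pgk1, which makes ATP, went from 240, 242 and 251 to 2442, 2205 and 2398 (log2 fold change 3.28 ± 0.06). Each of these genes lay in M1 above every M0 and M2 library. Pgam1, Eno1 and Eno2 were also called higher, with log2 fold changes of 1.95, 1.99 and 1.35. The muscle forms did not follow: Eno3 fell by 1.33 ± 0.21 on the log2 scale and Pgam2 had a log2 fold change of -0.31 ± 0.27 (edgeR adjusted p = 0.307). Both had few reads, with 18 to 21 counts per M1 library for Eno3 and 8 to 21 for Pgam2.

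Lactate genes split in the same way. Slc16a3 encodes MCT4, the lactate exporter of glycolytic cells, and stood at 29.5, 38.1 and 32.2 normalized TPM in M0, at 947, 793 and 868 in M1 and at 38.6, 47.3 and 39.0 in M2. The M1 log2 fold change was 4.65 ± 0.09 (edgeR adjusted p = 2.96e-13). Slc16a1, which encodes MCT1, went from 5.69 to 6.51 in M0 to 6.47 to 8.15 in M1 and was not called (log2 fold change 0.29 ± 0.10). Ldha, the isoform that favours lactate formation, rose from 375 to 399 to 1517 to 1724 (log2 fold change 2.09 ± 0.06). Ldhb, the isoform that favours pyruvate, fell by 2.63 ± 0.19, and had 167 to 224 counts per library in M0 and 11 to 25 in M1. Ldhb made up 2.80% of the summed level of both genes in M0 and 0.110% in M1.

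None of the 4 pyruvate dehydrogenase kinases was called higher in M1. Pdk4, the kinase induced by fasting, stood at 11.1, 13.6 and 13.2 normalized TPM in M0, at 0.796, 0.624 and 0.519 in M1 and at 8.83, 7.90 and 9.51 in M2, and fell by 4.33 ± 0.17 on the log2 scale (edgeR adjusted p = 1.42e-10). Pdk2 fell by 1.69 ± 0.10. Pdk1 and Pdk3 passed the test with log2 fold changes of 0.35 and 0.62, below the 2-fold limit.

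The phosphofructokinase-2 enzymes set the level of fructose 2,6-bisphosphate, the main allosteric activator of phosphofructokinase. Pfkfb3, the form with the strongest kinase activity, had the largest rise of all members. It stood at 22.8, 24.7 and 25.5 normalized TPM in M0, at 704, 717 and 672 in M1 and at 22.1, 20.6 and 22.5 in M2, with a log2 fold change in M1 of 4.80 ± 0.07 (edgeR adjusted p = 3.85e-14). Pfkfb2 fell by 1.14 ± 0.12 on the log2 scale, Pfkfb4 had a log2 fold change of -0.38 ± 0.06 and Pfkfb1 one of 0.11 ± 0.27 (edgeR adjusted p = 0.725). Pfkfb3 thereby went from 31.7% to 95.3% of the family's summed level.

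**Figure D2:**
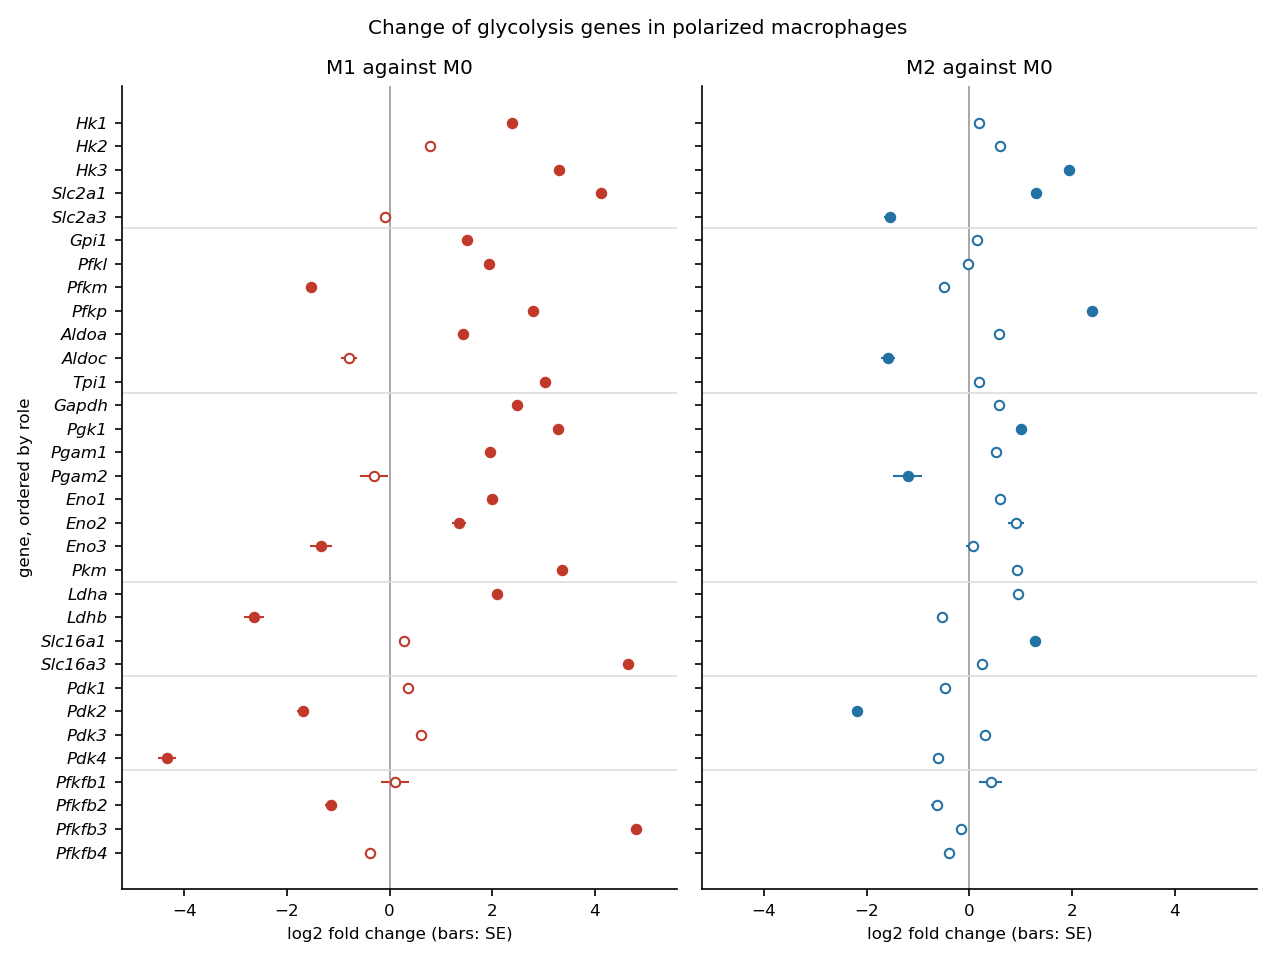
Log2 fold change of each gene in M1 (left) and M2 (right) against M0, with bars for the SE and filled points for called genes. In M1 17 genes lie to the right as filled points and 6 to the left, and in M2 5 and 4.

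M2 macrophages changed fewer members. Against the same M0 libraries, 5 members were called higher and 4 lower, beside 11% and 11.3% of all 12976 genes tested. Without the 2-fold limit, 18 members passed the test as higher and 11 as lower, beside 37.4% and 37.7% of all genes, and the median log2 fold change was 0.22 over the members and -0.00 over all genes. Pfkp had the largest rise, from 19.7 to 22.2 normalized TPM in M0 to 118, 121 and 112 in M2 (log2 fold change 2.38 ± 0.05, edgeR adjusted p = 3.78e-11). Hk3 rose by 1.94 ± 0.07 on the log2 scale, Slc2a1 by 1.30 ± 0.06, Slc16a1 by 1.27 ± 0.07 and Pgk1 by 1.0 ± 0.04. Pgk1 lay at the 2-fold limit and was not called in 3 of the 6 fits that left out a library (M2 replicate 3, M0 replicate 1 or M0 replicate 2), where its log2 fold change was 0.99 to 1.03 over the 6.

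The 4 members that fell in M2 were Pdk2 (log2 fold change -2.20 ± 0.10), Aldoc (-1.58 ± 0.14), Slc2a3 (-1.55 ± 0.12) and Pgam2 (-1.20 ± 0.29). Pgam2 had 9 to 18 counts per M2 library and 26 to 40 per M0 library, and its call was lost without M2 replicate 2. Slc2a3 stood at 1.53, 2.03 and 2.41 normalized TPM in M2, below every M0 and M1 library. Of the lower enzymes, Gapdh, Eno1, Pgam1 and Pkm passed the test in M2 with log2 fold changes of 0.58, 0.59, 0.51 and 0.93, below the 2-fold limit, as did Ldha with 0.94. Pfkfb3 and Slc16a3, which rose most in M1, had log2 fold changes of -0.17 ± 0.07 and 0.25 ± 0.09 in M2.

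Compared directly, M1 exceeded M2 for 15 members and lay below it for 5, beside 20.1% and 27.9% of all 12934 genes tested. The largest differences were Pfkfb3 (log2 fold change 4.88 ± 0.07) and Slc16a3 (4.31 ± 0.08) on the M1 side. Pdk4 (-3.81 ± 0.16), Ldhb (-2.19 ± 0.21), Eno3 (-1.49 ± 0.21), Pfkm (-1.13 ± 0.12) and Slc16a1 (-1.07 ± 0.08) were higher in M2. Slc16a1 was thus called higher in M2 than in both other states. Pfkp differed by only 0.31 ± 0.05 on the log2 scale and Hk2 by 0.09 ± 0.04 (edgeR adjusted p = 0.0735). These 3 comparisons share libraries, so they are not independent of each other.

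Shares within isoenzyme families, from normalized TPM per library, describe the same libraries by composition. Hk3 made up 55.9% ± 1.55 (SD, n = 3) of hexokinase in M0, 77.4% ± 0.355 in M1 and 77.4% ± 0.503 in M2. Among phosphofructokinases, Pfkp made up 32.4% ± 2.27 in M0, 51.9% ± 1.87 in M1 and 73.4% ± 1.09 in M2, and Pfkl 54.5%, 47.0% and 22.6%. Slc16a3 made up 84.5% ± 2.19 of the 2 lactate transporters in M0, 99.2% ± 0.0953 in M1 and 73.1% ± 1.46 in M2. Its M1 minus M0 difference was 14.7 points on this scale and 30.3 points when shares were taken from expected counts. None of these groups overlapped except Hk3 between M1 and M2, which were not tested. The exact two-sided permutation test of 3 against 3 libraries cannot go below p = 0.1, which each of these shares reached against M0 (Benjamini-Hochberg adjusted p = 0.144 over 108 shares tested).

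Genes around the pathway were read from lists of related function. Of 12 regulators of glycolysis genes, 11 were tested in M1 and 4 were called higher, beside 20.1% of all genes. These were Hif1a, Egln1, Egln3 and Vhl. Egln3, an oxygen-sensing hydroxylase that marks hypoxia-inducible factors for decay, had a log2 fold change of 4.05 ± 0.15, and Epas1, which encodes HIF-2α, fell by 2.80 ± 0.19. In M2, Myc rose (log2 fold change 2.13 ± 0.06), and Txnip, which restrains glucose uptake, had a log2 fold change of -1.12 ± 0.05. All 11 genes of pyruvate entry and pyruvate dehydrogenase were tested in M1, and 3 (27.3%) were called lower, a share close to the 26% of all genes called lower. Among the 3 were Mpc1, a subunit of the mitochondrial pyruvate carrier (-1.26 ± 0.05), and Pdp2, which reactivates pyruvate dehydrogenase (-2.73 ± 0.10).

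Of 8 pentose phosphate genes, G6pdx and Pgd were called higher and Pgls and Tkt lower in M1, beside 20.1% and 26% of all genes. In M2 6 of the 8 passed the test as higher, all by less than 2-fold, beside 37.4% of all genes. G6pdx, the entry enzyme, had a log2 fold change of 1.51 ± 0.05 in M1. The 2 tested genes of gluconeogenesis, Pck2 and G6pc3, fell in M1 by 1.88 ± 0.08 and 1.72 ± 0.10. Of 26 other glycolysis and glucose genes, 12 were tested in M1, with 2 called higher and 6 lower, beside 20.1% and 26% of all genes. Slc2a6, a lysosomal hexose transporter, had log2 fold changes of 3.50 ± 0.10 in M1 and 3.6 ± 0.16 in M2, and Slc16a7, which encodes MCT2, fell in M1 by 3.79 ± 0.07.

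In digits, at most 8 members were called at any time, among them Hk2, Slc2a1, Slc16a1 and Slc16a3 as higher and Pfkm as lower. The 18 enzymes from glucose to pyruvate made up 0.738% ± 0.266 (SD, n = 3) of all normalized TPM in non-regenerative digits at 0 hours, and the means of the later times lay between 0.498% and 0.780%. Without the libraries that stand apart the mean at 7 days went from 0.498% to 0.547% and at 14 days from 0.727% to 0.495%. In bulk tissue, fewer cells of a type and less RNA per cell cannot be told apart. The 8 keratinocyte markers had the highest sum of any marker list, 28101 to 56913 normalized TPM at 0 hours, and the 8 macrophage markers summed to 88.2 to 149 there.

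The cell makeup moved with time. The 10 neutrophil markers summed to 21 to 30.4 normalized TPM at 0 hours, 189 to 252 at 6 hours, 412 to 1138 at 12 hours, 1136 to 1313 at 24 hours, 647 to 1113 at 3 days, 66.1 to 926 at 7 days, 35.0 to 2464 at 14 days and 3.56 to 28.3 at 21 days, and Ly6g, Ngp and Camp were at 0 in every library at 12 hours. The 6 erythroid markers summed to 3138 to 4285 at 0 hours, 440 to 1258 at 12 hours and 85.2 to 457 at 24 hours. Keratinocyte markers summed to 40624 to 56762 at 12 hours and 55107 to 83934 at 24 hours. The part of these shifts in the results below was not tested. Digits also fell into an earlier (24 libraries) and a later period (17 libraries) by the date in their titles, whose meaning the labels do not give, and all 3 digits at 12 hours but 1 of 3 at 0 hours were of the earlier period.

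**Figure D3:**
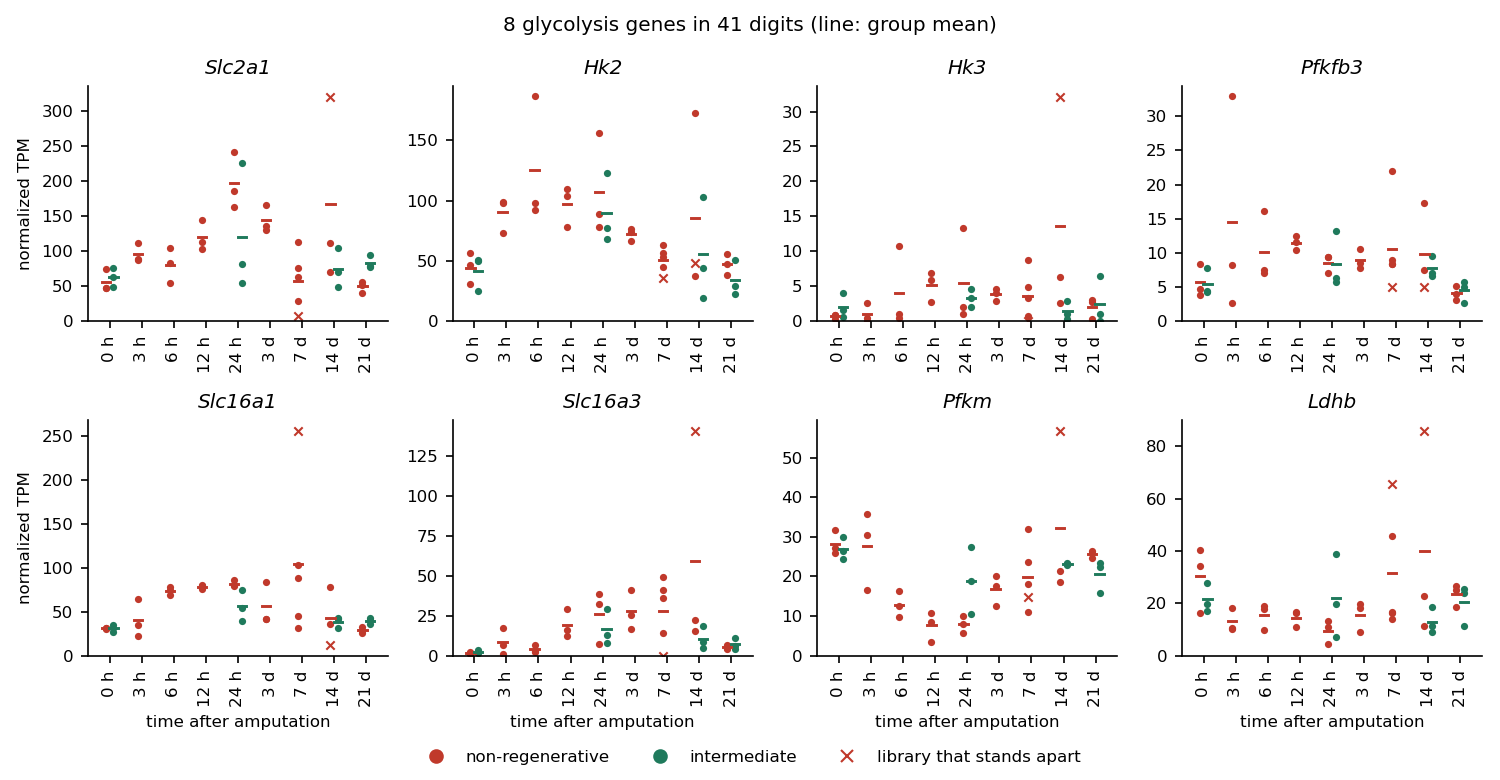
Level of 8 members in each of the 41 digits by time after amputation, in normalized TPM, with a line at each group mean and crosses for the 2 libraries that stand apart. In non-regenerative digits Slc2a1 and Slc16a3 lie above their 0 hour levels at 12 and 24 hours and 3 days, and Pfkm lies below its own from 6 to 24 hours. In intermediate digits Slc2a1 and Pfkm at 24 hours overlap their 0 hour levels.

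At 3 hours no member was called and at 6 hours 4 were. For 3 against 0 hours edgeR called 0% of all 12562 genes, 3 of 30 members (10%) had an unadjusted p under 0.05, beside 10.8% of all genes, and DESeq2 called Hk2, beside 1.56% of all genes. At 6 hours 3 members were called higher and 1 lower, beside 3.23% and 1.62% of all 13168 genes tested. At 12 hours 7 were called higher and 1 lower, beside 6.76% and 4.64% of 13075 genes. At 24 hours 4 were called higher and 2 lower, beside 5.57% and 5.14% of 13420 genes, and at 3 days 2 were called higher, beside 0.557% of 13286 genes called higher and 0.166% called lower. The median log2 fold change of the members was -0.38, -0.21, -0.02 and 0.05 at these 4 times and that of all genes -0.03, -0.03, -0.04 and -0.00. These comparisons share the 3 digits at 0 hours.

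Hk2, the hexokinase that insulin and hypoxia induce, rose early. It stood at 31.0, 46.3 and 56.3 normalized TPM at 0 hours, at 91.9, 98.0 and 187 at 6 hours, at 77.8, 110 and 104 at 12 hours and at 77.8, 156 and 88.8 at 24 hours. Every digit of these 3 times lay above every digit at 0 hours. So did those at 3 hours, at 98.4, 99.0 and 73.3, where DESeq2 called Hk2 (log2 fold change 1.44 ± 0.22) and edgeR called no gene. The log2 fold changes at 6, 12 and 24 hours were 1.60 ± 0.16 (edgeR adjusted p = 0.00280), 1.55 ± 0.17 (adjusted p = 0.00150) and 1.19 ± 0.15 (adjusted p = 0.00221). Hk2 went from 17.9% ± 8.77 of hexokinase at 0 hours to 44.1% ± 9.73 at 12 hours, and Hk1 from 81.8% to 53.2% (exact permutation p = 0.1, the smallest that 3 against 3 allows). Hk3 was called at 12 hours with a log2 fold change of 3.32 ± 0.66 (adjusted p = 0.0133), on 3, 5 and 10 counts at 0 hours and 44, 23 and 51 at 12 hours. It was left out by the filter on low counts at 3, 6 and 24 hours.

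Slc2a1 stood at 74.3, 47.9 and 48.2 normalized TPM at 0 hours, at 104, 144 and 113 at 12 hours, at 242, 163 and 186 at 24 hours and at 136, 131 and 167 at 3 days. All digits of the 3 later times lay above those at 0 hours. The log2 fold changes were 1.1 ± 0.20, 1.77 ± 0.24 and 1.36 ± 0.22 (edgeR adjusted p = 0.0104, 0.00296 and 0.0329). Slc2a3 was not called at these times and stood at 27.0, 9.21 and 6.89 at 0 hours.

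The lactate transporters were called higher at different times, but a difference in timing between them was not tested. Slc16a1 stood at 31.6, 31.2 and 29.9 normalized TPM at 0 hours, at 74.2, 69.2 and 78.4 at 6 hours, at 80.3, 75.4 and 78.7 at 12 hours and at 85.9, 78.8 and 80.0 at 24 hours. Its log2 fold changes were 1.31 ± 0.15, 1.39 ± 0.14 and 1.45 ± 0.15 (edgeR adjusted p = 0.00476, 0.00113 and 0.000906). Slc16a3 stood at 1.61, 1.17 and 2.39 at 0 hours, at 28.9, 12.1 and 16 at 12 hours, at 38.5, 7.07 and 32.5 at 24 hours and at 41.2, 16.8 and 25.4 at 3 days.

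The log2 fold changes of Slc16a3 were 3.64 ± 0.48, 4.0 ± 0.62 and 4.02 ± 0.40 (edgeR adjusted p = 0.00283, 0.00486 and 0.00571), the largest among the members called at each of these times. At 6 hours it was not called (1.39 ± 0.54, adjusted p = 0.152), though its log2 fold change was close to that of Slc16a1 then. Slc16a3 made up 5.29% ± 1.93 of both transporters at 0 hours and 19.1% ± 6.56 at 12 hours. Slc16a1 was thus the more abundant transcript in digits at 0 and 12 hours, and Slc16a3 in all 3 macrophage states.

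Slc16a3 remained high in most digits at 7 and 14 days, but its calls there depended on the fit and on the libraries kept. At 7 days it stood at 36.1, 0, 14.4, 49.3 and 41.1 normalized TPM, the 0 being the library that stands apart, with a log2 fold change of 4.0 ± 1.36 (edgeR adjusted p = 0.742). Without that library it was called, at 4.31 ± 0.49 (adjusted p = 0.00838). At 14 days it stood at 15.5, 140 and 22.0 (log2 fold change 4.61 ± 0.86, adjusted p = 0.205), and without replicate 2 it was called at 3.49 ± 0.42 (adjusted p = 0.0123). Those were fits of each pair of groups. In 1 fit of all digits, with both libraries that stand apart kept, Slc16a3 was called at 7 and 14 days (edgeR adjusted p = 0.0226 and 0.00462). The neutrophil markers summed to 556, 819, 926, 66.1 and 347 in the digits at 7 days and to 35.0, 316 and 2464 at 14 days, in the same order of replicates, and their part in these levels was not tested. At 21 days it had come down to 6.86, 4.04 and 4.93 (log2 fold change 1.65 ± 0.41, adjusted p = 0.257).

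Among the regulators, Pfkfb4 was called higher at 6 and 12 hours and Pfkfb3 at 12 hours only. Pfkfb3 stood at 8.45, 4.74 and 3.85 normalized TPM at 0 hours at 16.1, 7.03 and 7.48 at 6 hours, where it overlapped the 0 hour digits, and at 12.5, 11.5 and 10.4 at 12 hours (log2 fold change 1.23 ± 0.24, edgeR adjusted p = 0.0117). Pfkfb4, a form known to respond to hypoxia, stood at 11.5, 8.76 and 6.37 at 0 hours, 15, 21 and 26.4 at 6 hours and 24.7, 15.3 and 19.5 at 12 hours, with log2 fold changes of 1.41 ± 0.26 and 1.39 ± 0.31. Neither overlapped its 0 hour digits at the times it was called. The Pfkfb4 call was lost in 4 of the 6 fits that left out a library at 6 hours and in 4 of 6 at 12 hours. Pfkfb2 went from 66.5% to 34.9% of the family between 0 and 12 hours, Pfkfb4 from 18.9% to 37.6% and Pfkfb3 from 11.7% to 22.1%.

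Pfkm was the member most often called lower. It stood at 27.2, 26.0 and 31.6 normalized TPM at 0 hours, at 9.83, 12.5 and 16.3 at 6 hours, at 3.51, 10.9 and 8.55 at 12 hours and at 8.04, 10.1 and 5.64 at 24 hours. Its log2 fold changes were -1.07 ± 0.24, -1.82 ± 0.36 and -1.79 ± 0.25 (edgeR adjusted p = 0.0417, 0.0131 and 0.00296). By 21 days it stood at 24.6, 25.9 and 26.5. The 13 skeletal muscle markers, whose cells use this isoform, summed to 27.0 to 86.5 normalized TPM at 0 hours, 11.4 to 51.2 at 6 hours, 12.2 to 22.7 at 12 hours and 18.6 to 25.7 at 24 hours, and their part in the result was not tested. Pfkp stayed the main phosphofructokinase, with 81.0% ± 4.49 at 0 hours and 83.5% ± 1.78 at 12 hours.

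Ldhb was called lower at 24 hours only, at 10.8, 13.2 and 4.42 normalized TPM against 40.5, 16.1 and 34.3 at 0 hours (log2 fold change -1.68 ± 0.43, edgeR adjusted p = 0.0324). This call was lost in 5 of the 6 fits that left out a library. Pdk1 passed the test at 6 and 12 hours with log2 fold changes of -0.74 ± 0.17 and -0.99 ± 0.25, below the 2-fold limit.

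In M1, 6 of the 8 enzymes of the lower pathway rose. In non-regenerative digits edgeR called none of them at any time. Gapdh and Pgk1 had an unadjusted p under 0.05 at 24 hours and Eno2 at 14 and 21 days, and DESeq2 called Eno2 at 21 days. At 24 hours Gapdh stood at 1562, 1198 and 1434 normalized TPM against 1214, 455 and 572 at 0 hours (log2 fold change 0.91 ± 0.31, edgeR adjusted p = 0.0756). Pkm stood at 1736, 1783 and 1283 against 1634, 1174 and 1804 (0.29 ± 0.24, adjusted p = 0.431), so that its groups overlapped. The spread among the digits at 0 hours limits what could be detected for Gapdh, Aldoa and Eno1, whose highest and lowest 0 hour digits differed by more than 2-fold. Without 0 hour replicate 1, Gapdh was called at 24 hours with a log2 fold change of 1.35 ± 0.18 (adjusted p = 0.00230). That replicate was the only 0 hour digit of the earlier period, and the part of the period in this call was not tested.

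Several of these calls depend on single digits or on how the digits were fitted. At 12 hours, Hk2, Slc16a1 and Slc16a3 held their calls whichever of the 6 libraries was omitted. Without 0 hour replicate 2 they were the 3 members called higher, and Hk3, Pfkfb3, Pfkfb4 and Slc2a1 were lost. Pfkm was lost at 12 hours without 12 hour replicate 3, at 6 hours in 5 of 6 such fits and at 24 hours in 0 of 6, and Slc2a1 was lost at 3 days in 4 of 6. In 1 fit of all 41 digits with the period as a term, Hk2 kept its calls at 6, 12 and 24 hours (log2 fold changes 1.63, 1.59 and 1.21) and Pfkm at 12 and 24 hours (-1.56 and -1.69). Slc16a3 kept its call at 24 hours (3.72, edgeR adjusted p = 0.0317). All other calls in digits were lost in that fit. Slc2a1 was not called at 12 hours, 24 hours or 3 days (adjusted p = 0.425, 0.0724 and 0.683), nor was Slc16a3 at 12 hours (3.31, adjusted p = 0.0670) or 3 days (adjusted p = 0.102). Slc16a1 was not called at any of its 3 times (adjusted p = 0.121 to 0.258), with log2 fold changes of 1.43 to 1.62. Pfkm at 6 hours had an adjusted p of 0.269, and Pfkfb4 at 6 and 12 hours, Pfkfb3 and Hk3 at 12 hours and Ldhb at 24 hours had adjusted p-values of 0.117 to 0.328. The directions of all called members were unchanged in that fit. A fit of all digits without the period lost 3 calls at 6 hours, 5 at 12 hours, 3 at 24 hours and 2 at 3 days. With the period as a term 3, 6, 3 and 2 calls were lost at these times. Both fits also called Slc16a3 higher at 7 and 14 days and Pfkp lower at 14 days (with the period -1.63 ± 0.38, edgeR adjusted p = 0.00987). They kept both libraries that stand apart.

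Tested over all 9 times together, 4 members changed in non-regenerative digits, Hk2, Pfkm, Slc16a3 and Slc2a3, beside 7.62% of all 14434 genes tested. Their edgeR adjusted p-values were 0.000210, 0.0146, 0.0236 and 0.00679. With the period as a term Slc2a3 no longer passed, and Slc16a3 no longer passed when any 1 of the 3 digits at 0 hours was left out. Slc2a3 stood highest at 0, 12 and 24 hours, with 1 or more digits over 25 at each, and at 2.33 to 2.40 at 21 days. Without both libraries that stand apart, 14 members passed, beside 20.4% of 14722 genes, and the further 10 were Eno2, Gapdh, Ldha, Pdk1, Pfkfb3, Pfkfb4, Pgk1, Slc16a1, Slc2a1 and Tpi1. That setting was chosen after seeing the data.

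**Figure D4:**
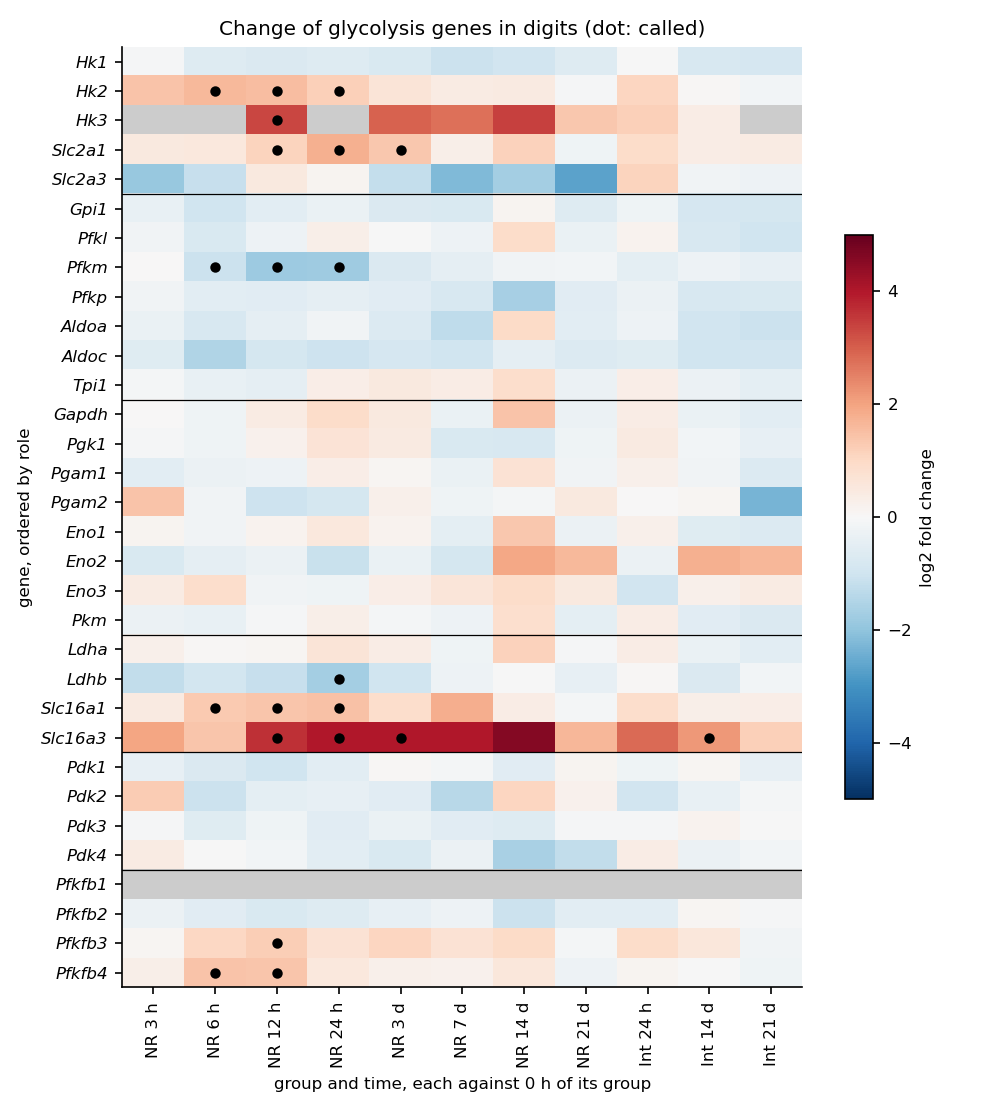
Log2 fold change of each gene at each time against the 0 hour digits of its own group (NR, non-regenerative, and Int, intermediate), from -5 to 5, with a dot for each called gene and grey where a gene was left out by the filter on low counts. The dots gather in the rows of Hk2, Slc2a1, Slc16a1, Slc16a3 and Pfkm between 6 hours and 3 days.

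At 7, 14 and 21 days no member was called against 0 hours by edgeR's fit of each pair, beside 0.0537%, 0% and 0.452% of all genes called in either direction. At an unadjusted p under 0.05 there were 6, 5 and 5 of 31 members (19.4%, 16.1% and 16.1%), beside 4.34%, 7.7% and 7.2% of all genes. Without replicate 2 of each day there were 10 members at 7 days and 11 at 14 days (32.3% and 35.5%), beside 9.5% and 13.9% of all genes. DESeq2 called 1, 2 and 3 members, with Slc16a3 among them each time, beside 1.23%, 2.61% and 1.84% of all genes called in either direction. Of the related lists, Myc rose at 6 and 12 hours (log2 fold changes 1.24 ± 0.17 and 1.15 ± 0.19), and Epas1 fell at 12 and 24 hours (-1.28 ± 0.27 and -1.24 ± 0.24). Txnip fell at 24 hours (-1.37 ± 0.19), and the 9 other regulators tested were not called then. Bpgm, which makes 2,3-bisphosphoglycerate in red cells, fell by 1.36 ± 0.22 at 12 hours, beside the fall of the erythroid markers given above, whose part in it was not tested. Of all genes, 6.76% were called higher and 4.64% lower at 12 hours, and 5.57% and 5.14% at 24 hours. Of the pentose phosphate, pyruvate entry and gluconeogenesis lists, no gene was called at 12 hours and 2 were at 24 hours. These were H6pd, the pentose phosphate enzyme of the endoplasmic reticulum (log2 fold change 1.21 ± 0.32, edgeR adjusted p = 0.0342), and Pdp2 (-1.21 ± 0.32, adjusted p = 0.0363). Of the other glycolysis and glucose genes, 4 of 15 tested were called lower at 24 hours, beside 5.14% of all genes. Among the 4 were Slc2a4, which encodes the insulin-responsive transporter GLUT4 (-2.08 ± 0.49), and Slc2a12 (-1.67 ± 0.37).

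Intermediate digits showed 1 called member. Slc16a3 stood at 1.92, 1.97 and 3.52 normalized TPM at 0 hours, at 29.4, 8.02 and 13.1 at 24 hours, at 18.3, 8.66 and 4.65 at 14 days and at 4.27, 5.90 and 10.9 at 21 days. Every later digit lay above the 0 hour digits. It was called at 14 days (log2 fold change 2.17 ± 0.42, edgeR adjusted p = 0.0418), beside 1.49% of all 13334 genes called higher and 0.187% called lower, and this call was lost whichever of the 6 libraries was left out. At 24 hours its log2 fold change in intermediate digits was 2.82 ± 0.55 (adjusted p = 0.12).

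No member was called at 24 hours or 21 days in intermediate digits by edgeR, beside 0.0152% and 1.39% of all genes in either direction. There, 8 of 31 and 19 of 30 members (25.8% and 63.3%) had an unadjusted p under 0.05, beside 15.4% and 16.6% of all genes, and DESeq2 called 1 and 2, beside 2.65% and 3.09% of all genes. Pfkl passed the test at 21 days with a log2 fold change of -0.98 ± 0.19 (adjusted p = 0.0374). The neutrophil markers of these digits summed to 19.2 to 41.3 normalized TPM at 0 hours, 142 to 1354 at 24 hours and 22.0 to 2170 at 14 days, and their part in the result was not tested. Over all 4 times, Slc16a3 and Aldoa passed (edgeR adjusted p = 0.0215 and 0.0328), beside 6.21% of 14004 genes. Aldoa stood at 874, 1240 and 1305 normalized TPM at 0 hours and 364, 635 and 574 at 21 days, and over fits that left out 1 library 0 to 9 members passed.

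The groups were compared at the 4 times they share. Neither edgeR nor DESeq2 called a member at 0 hours, 24 hours, 14 days or 21 days, beside 0%, 0%, 0% and 0.648% of all genes called by edgeR in either direction. DESeq2 called 0.126%, 1.19%, 0% and 1.49% of all genes. Unadjusted p-values under 0.05 were found for 1, 4, 2 and 11 members (3.33%, 13.3%, 6.45% and 34.4% of those tested), beside 3.64%, 11.3%, 2.0% and 14% of all genes. At 21 days every intermediate digit was of the earlier period and every non-regenerative digit of the later, so group and period cannot be told apart there. Without non-regenerative replicate 2 at 14 days there were 0 members at that time, beside 1.59% of all genes. At 24 hours Pfkm stood at 10.6, 27.3 and 18.8 normalized TPM in intermediate digits and 8.04, 10.1 and 5.64 in non-regenerative digits, a log2 fold change of 1.26 ± 0.37 (edgeR adjusted p = 0.346). Slc2a1 at 24 hours stood at 226, 54.2 and 82.4 against 242, 163 and 186. Without intermediate replicate 1 at 24 hours, Pfkm was called higher (1.52, adjusted p = 0.0223) and Slc2a1 lower (-1.55, adjusted p = 0.0112) in intermediate digits.

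The difference of the 2 time courses was tested as an interaction. No member passed, and edgeR called 0% of all 14768 genes, with 2 members (6.25%) at an unadjusted p under 0.05, beside 7.1% of all genes. The amputation level of each digit, from 41% to 80%, was tested with time as a factor, and again no member passed, beside 0% of all 14996 genes, with 8 members (25%) at an unadjusted p under 0.05, beside 8.3% of all genes. Once both libraries that stand apart were left out, there were 0 members, beside 6.57% of all genes. The design thus showed no difference by amputation level that passed the test for these genes, and with 3 digits per time it could miss differences of the size of the spread described above.

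**Figure D5:**
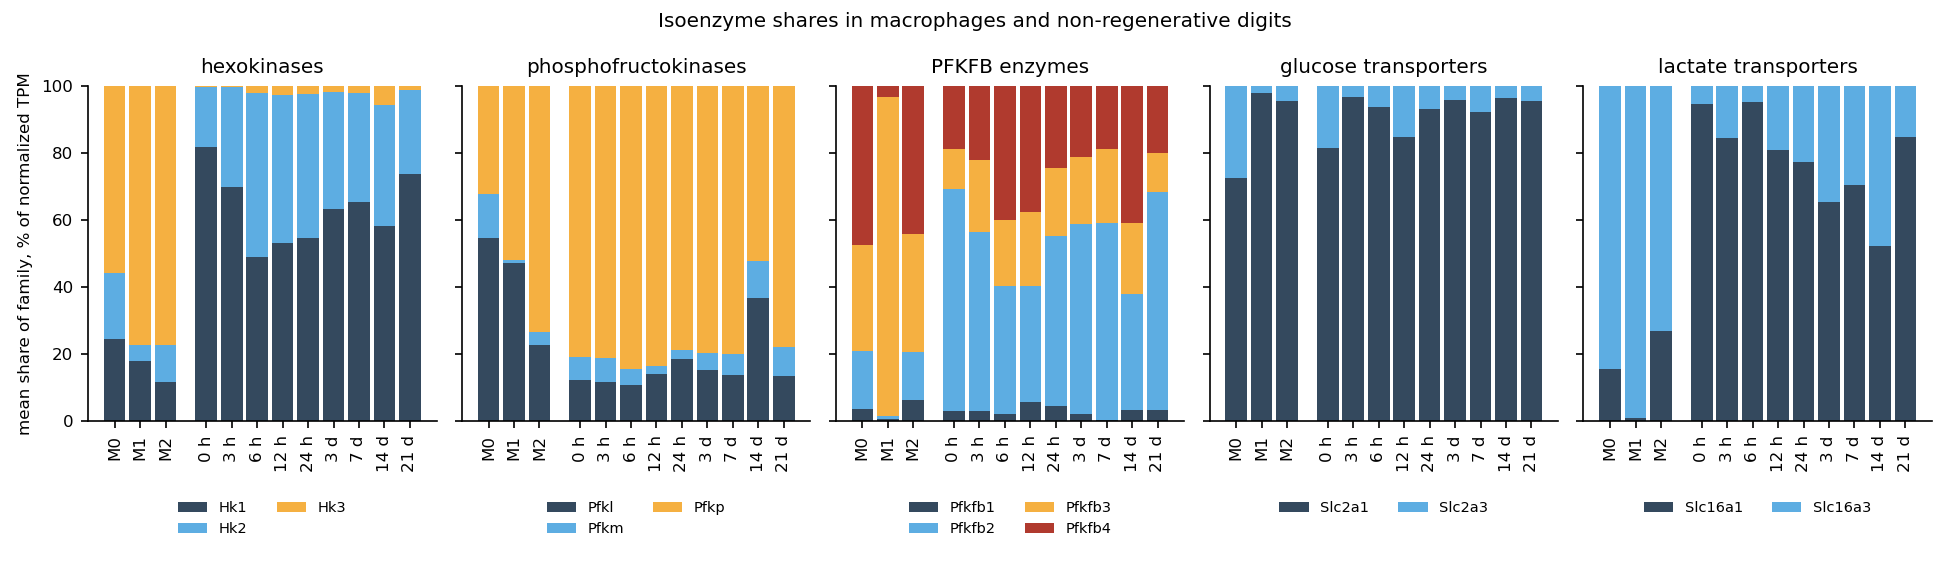
Mean share of each isoenzyme in the summed normalized TPM of its family, in percent, for the 3 macrophage states and for non-regenerative digits by time (n = 3, and 5 at 7 days). Hk3 and Slc16a3 lead their families in macrophages and Hk1 and Slc16a1 in digits at 0 hours, and Pfkfb3 fills 95.3% of its family in M1.

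Counts of some members are uncertain. Hk3, Pfkm, Pfkp, Aldoa, Tpi1, Gapdh, Pfkfb1 and Pfkfb2 overlap another counted gene in the annotation, and the strand setting of the counting is not given in the sources used here. Aldoa, Gapdh, Pgk1, Pgam1 and Ldha have named pseudogene copies that could share reads, but only for Pgk1 is such a copy itself among the counted genes. Pfkfb1 was at 0 in some digits and was left out of every digit comparison against 0 hours by the filter on low counts.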

How the data were processed

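RNA-seq libraries of 9 macrophage cultures and 41 digits were analysed. Per the labels and the study's methods, the authors processed reads with CASAVA, aligned them with Bowtie to mouse genes (mm10) allowing 2 mismatches, and estimated expression with RSEM 1.2.3, whose multi-read handling divides reads among near-identical genes. The deposited expected counts are not whole and were rounded to whole numbers. The deposited normalized TPM, a signal that the authors scaled by median-by-ratio normalization separately for macrophages and digits, served for levels and shares. All 100 columns were tied to a library by name.

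Counts were tested with edgeR 4.0.16 (filterByExpr, TMM, quasi-likelihood test with Benjamini-Hochberg adjustment over all genes tested), 1 fit per pair of groups. A gene was called at an adjusted p under 0.05 and a change over 2-fold in the mean normalized count plus 1. Changes over time and by group used 1 fit per question. Scripts were tested on simulated data. Alternatives were DESeq2 1.42.0, its size factors, no filter, 1 fit of all libraries, the date period as a term, a replicate block in macrophages and leaving out each library. Leaving out both libraries that stand apart was chosen after seeing the data. Replicate numbers did not pair macrophages: deviations of same-numbered libraries correlated from -0.133 to 0.148 and of others from -0.153 to 0.160. Replicates differed by more than sampling noise (chi-square per degree of freedom 3.05 to 411 over 55 pairs). Members and lists were chosen with earlier results of these data known. All members were reported, those called with values, and at most the 2 called genes with the largest change from each related list and comparison. Promoters came from RefSeq tables and 31 members matched. Figures were drawn with matplotlib 3.10.9.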

Additional observations from a re-analysis of the deposited data

Results flagged for a closer look

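Within the 5 non-regenerative digits at 7 days, 3 of the 32 genes had 1 digit far from the other 4, judged by its gap to the nearest digit over the whole range (Dixon's ratio, 95% critical value 0.71 for 5 samples). For normally distributed values chance gives such a digit in about 1 of 20 groups, so some flags among 32 genes come by chance. In none of the 3 was it replicate 2, the library that stands apart. Pfkfb3 stood at 21.9 normalized TPM in replicate 4 and at 4.96 to 8.90 in the others (ratio 0.768). Pdk4 stood at 4.54 in replicate 5 and at 0 to 1.02 in the others (ratio 0.775). Pfkfb1 was at 0.511 in replicate 3 and at 0 in the other 4 (ratio 1.0), a level at which few reads decide the value. With 4 digits at 0 the ratio is 1.0 whatever the remaining value.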

How the results depend on the processing

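No direction reversed under any alternative run. In macrophages the calls depended little on the settings, and the replicate block left 17 higher and 6 lower in M1, 5 and 4 in M2 and 15 and 5 in M1 against M2, so that it changed no count of calls. With no fold threshold, counts of members were 18 higher and 11 lower in M2 against M0, 23 higher in M1 against M2, 2 lower at 6 hours, 3 lower at 12 hours and 1 lower at 21 days in intermediate digits. With no filter on low counts, they were 1 higher at 3 hours, 2 lower at 6 hours, 2 lower at 12 hours, 1 higher at 24 hours and 1 lower at 21 days in intermediate digits, and 4 over time in intermediate digits. DESeq2 size factors gave 2 lower at 12 hours and 10 over time in non-regenerative digits, and leaving out both libraries that stand apart gave 14. DESeq2's test gave 1 higher at 3 hours, 2 lower at 6 hours, 3 lower at 12 hours, 4 higher at 3 days, 1 at 7 days, 2 at 14 days, and 2 higher and 1 lower at 21 days, and in intermediate digits 1 higher at 24 hours and 1 higher and 1 lower at 21 days. All digits in 1 fit gave 1 higher and 0 lower at 6 hours, 2 higher at 12 hours, 2 higher and 1 lower at 24 hours, 0 at 3 days, 1 higher and 1 lower at 7 and at 14 days, and 0 in intermediate digits at 14 days. With the period as a term that fit gave the same counts at 6 hours, 24 hours, 3 days and 14 days, and 1 higher at 12 hours and at 7 days. Shares by expected counts moved the M1 minus M0 difference of Hk3 to 26.0 points from 21.5, of Pfkfb3 to 53.9 from 63.6 and of Slc16a3 to 30.3 from 14.7. Over fits without 1 library each, counts ranged from 0 to 1 lower at 6 hours, 3 to 8 higher and 0 to 2 lower at 12 hours, 1 to 2 lower at 24 hours, 1 to 2 higher at 3 days and 0 to 1 higher at 7 and at 14 days. In intermediate digits they were 0 to 0 higher and 0 to 2 lower at 14 days, 0 to 2 lower at 21 days and 0 to 1 in each direction against non-regenerative digits at 24 hours. Over time they ranged from 3 to 10 in non-regenerative digits (8 without 14 day replicate 2 and 10 without 14 day replicate 1) and from 0 to 9 in intermediate digits (9 without 14 day replicate 1). The cause of these changes was not tested. Digit depth, down to 1468749 counts, limits low members such as Hk3, Pfkfb1 and Pgam2.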
